A study of Mus musculus with 7 samples.

Results

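The 9 genes described here encode the enzymes that write, copy and remove methyl marks on cytosine in mouse DNA, together with their closest cofactors. They were taken by name from 21887 protein-coding genes: the methyltransferases Dnmt1, Dnmt3a and Dnmt3b, the cofactors Dnmt3l and Uhrf1, the dioxygenases Tet1, Tet2 and Tet3, and the glycosylase Tdg. All 9 were found in the gene table. Binding near them was read from peak lists of chromatin immunoprecipitation followed by sequencing (ChIP-seq), for Oct1 (gene Pou2f1) and Oct4 (gene Pou5f1), which are POU-domain factors that recognise related octamer sequences. All libraries came from mouse embryonic stem cells (ESCs) of the Parental genotype. There were 4 groups, each of 1 library: the ESCs before differentiation with Oct1, the same stage with Oct4, and Oct1 in cells taken along the mesodermal lineage for 3 days or for 6 days. Differentiation started with 2 days of Bmp4 in N2B27 medium and went on with 4 days of Rspo3 and the BMP receptor inhibitor LDN-193189, so day 3 falls early in the second step. With 1 library per group there is no replicate error, so values are set side by side and no difference between groups was tested. A peak list does not measure expression, so it cannot check the cell identity of these cultures. Peaks within 10 kb were listed at 5, 3, 3 and 3 of 7 pluripotency markers (ESC Oct1, ESC Oct4, day 3, day 6), at 3, 3, 2 and 2 of 6 presomitic mesoderm markers, at 2, 2, 3 and 3 of 3 neural markers and at 1 of 3 endoderm markers in each list. The shares of all protein-coding genes in the same order were 35.2%, 40.2%, 24.6% and 41.5%.

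DNA methylation in mammals falls mainly on CpG dinucleotides. Dnmt3a and Dnmt3b place new marks, with Dnmt3l as a catalytically inactive partner, and Dnmt1 copies marks to the daughter strand after Uhrf1 has recognised hemimethylated DNA. The Tet proteins oxidise methylated cytosine, and Tdg excises the more oxidised bases so that repair can restore an unmodified cytosine. ESCs lose and regain methylation readily, and these genes are known to change as cells leave pluripotency.

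The lists held 17709 peaks for Oct1 in ESCs, 22817 for Oct4 in ESCs, 4867 for Oct1 at day 3 and 7758 for Oct1 at day 6. Each peak carries a whole-number score given by the authors, whose meaning is not stated in the sources used here. It is therefore given as a rank and as a percentile within its own list, where 50 is the middle of that list. Where scores are printed they are not on a common scale, as the median scores were 106, 143, 194 and 508 in the same order. Scores from different lists, and ranks from lists of different lengths, do not show a change in binding. The labels state a depth of 100M read-pairs, and the number of reads behind each peak is not known. Positions are 1-based on mouse build mm10 (GRCm38).

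Several results below concern annotated starts, so the sequences there are shown first. The reference gave a start window of 300 bases (250 before and 50 after a start) for 16 starts of the 9 genes. The windows below are the 5 that a peak touched in at least 2 lists, from RefSeq (GRCm38.p6), with CpG dinucleotides in capitals.
Tet2, chr3:133544341-133544640, minus strand: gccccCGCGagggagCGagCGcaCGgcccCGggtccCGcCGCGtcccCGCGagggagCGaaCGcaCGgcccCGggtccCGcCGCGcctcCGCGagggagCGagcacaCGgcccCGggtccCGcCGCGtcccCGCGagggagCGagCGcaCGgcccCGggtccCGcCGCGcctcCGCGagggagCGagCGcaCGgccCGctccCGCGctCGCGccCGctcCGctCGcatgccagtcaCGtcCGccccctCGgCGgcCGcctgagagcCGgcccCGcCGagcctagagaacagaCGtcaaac
Tdg, chr10:82629588-82629887, plus strand: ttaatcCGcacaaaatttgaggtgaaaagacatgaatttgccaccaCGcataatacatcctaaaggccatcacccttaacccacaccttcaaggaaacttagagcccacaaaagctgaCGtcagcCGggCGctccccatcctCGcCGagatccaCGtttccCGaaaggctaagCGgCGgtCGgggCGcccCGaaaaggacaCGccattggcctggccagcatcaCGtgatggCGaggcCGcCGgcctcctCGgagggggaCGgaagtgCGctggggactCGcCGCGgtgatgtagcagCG
Dnmt3a, the most downstream of its 3 starts, chr12:3891494-3891793, plus strand: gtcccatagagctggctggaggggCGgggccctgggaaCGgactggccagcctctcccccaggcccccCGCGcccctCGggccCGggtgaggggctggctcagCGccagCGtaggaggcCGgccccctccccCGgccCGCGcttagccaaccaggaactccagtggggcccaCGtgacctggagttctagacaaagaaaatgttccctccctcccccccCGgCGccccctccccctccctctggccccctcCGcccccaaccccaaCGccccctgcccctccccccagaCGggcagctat
Dnmt3l, the middle of its 3 starts, chr10:78049592-78049891, plus strand: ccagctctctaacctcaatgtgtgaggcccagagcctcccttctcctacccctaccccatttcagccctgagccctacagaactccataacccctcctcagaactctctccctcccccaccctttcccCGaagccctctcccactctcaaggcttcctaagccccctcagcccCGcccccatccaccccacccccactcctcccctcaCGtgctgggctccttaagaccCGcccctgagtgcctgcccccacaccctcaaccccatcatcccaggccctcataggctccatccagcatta
Dnmt3l, the most downstream start, chr10:78055085-78055384, plus strand: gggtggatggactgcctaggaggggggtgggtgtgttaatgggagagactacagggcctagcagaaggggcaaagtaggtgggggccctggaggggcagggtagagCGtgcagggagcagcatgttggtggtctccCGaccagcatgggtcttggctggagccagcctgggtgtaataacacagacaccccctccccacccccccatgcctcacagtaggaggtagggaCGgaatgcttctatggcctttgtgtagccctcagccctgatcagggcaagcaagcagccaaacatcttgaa
The first window lay inside Oct1 peaks of all 3 times. The Tdg and Dnmt3a windows were touched at day 3 and day 6, and both Dnmt3l windows by Oct1 and Oct4 in ESCs. The Tet2 window holds 57 CpGs and the more downstream Dnmt3l window 3, so these sites differ widely in base composition.

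In ESCs, 8 of the 9 genes had an Oct1 peak that lay in the gene or less than 10 kb from it, against 35.2% of all protein-coding genes. Oct4 peaks were listed at 7 of 9 (40.2% of all genes). At day 3 the number was 5 of 9 (24.6% of all genes) and at day 6 it was 7 of 9 (41.5% of all genes). All 4 counts lay above the background, and longer genes have more room for a peak. Among genes between the shortest member (20150 bp) and the longest (112885 bp), the shares of all genes were 41.7%, 46.1%, 29.2% and 48.9% in the same order. Widening the reach to 50 kb gave 8 of 9 for ESC Oct1 (58.7% of all genes), 8 of 9 for Oct4 (62.5%), 6 of 9 at day 3 (41.5%) and 9 of 9 at day 6 (57.9%). Many peaks in this wider reach were nearer to another gene, as held for 16 of 36 ESC Oct1, 28 of 52 Oct4, 5 of 9 day 3 and 11 of 20 day 6 peaks.

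**Figure D1:**
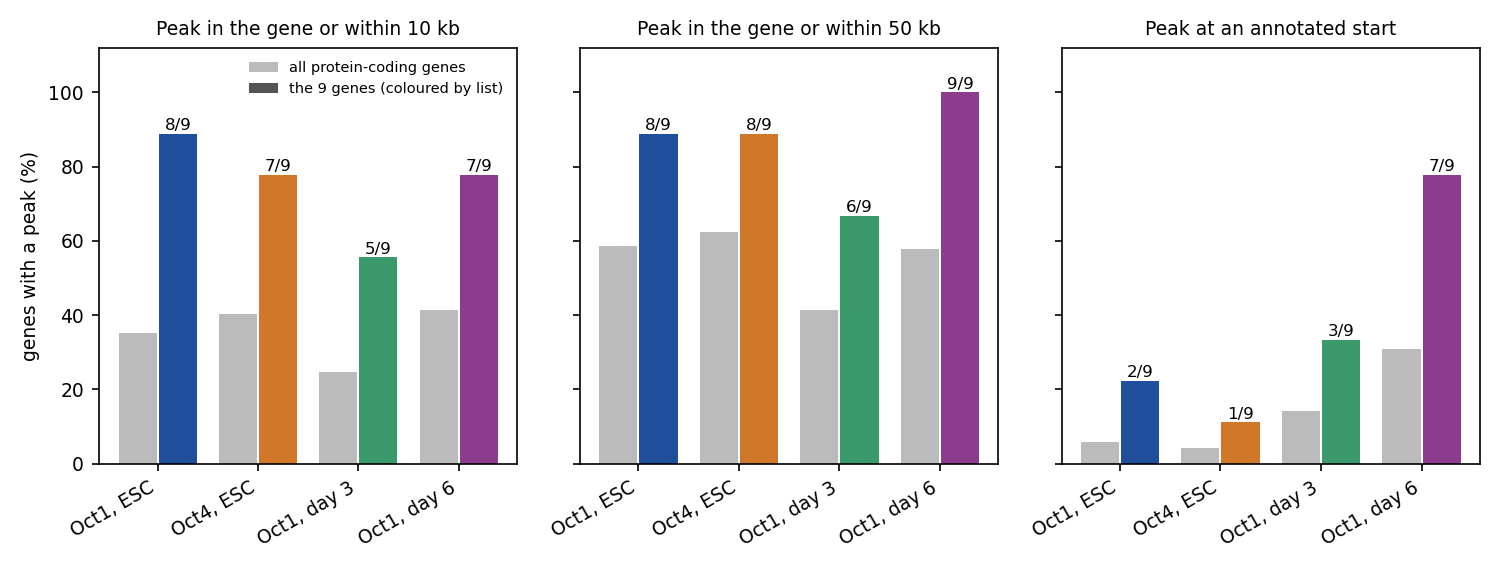
Percent of genes with a peak in each list, for all protein-coding genes (grey) and the 9 genes (coloured, with their count), counted in the gene or within 10 kb, within 50 kb, and over the start windows. The coloured bars stand above the grey ones in each list and class, with the day 6 starts at 7 of 9 against 31.0%.

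The scores of these peaks were ordinary for their lists, apart from a few. Within 10 kb the 18 ESC Oct1 peaks had a median percentile of 46.6 (9.57 to 99.7), the 26 Oct4 peaks 47.4 (4.44 to 92.3), the 6 day 3 peaks 43.5 (2.39 to 98.8) and the 11 day 6 peaks 44.6 (11.5 to 85.7). The highest 10% of a list held 1 such peak for ESC Oct1 and 1 for day 3, both at the start of Tet2, 1 for Oct4, inside Dnmt3l, and none for day 6. The counts of genes therefore rest on mid-scoring peaks. When each list was shortened to its 4867 highest scores, ESC Oct1 peaks were left at 2 of 9 genes, Dnmt3l and Tet2, against 16.3% of all genes, and Oct4 peaks at 2 of 9, Dnmt3l and Tet1, against 14.7%. Day 3 stayed at 5 of 9, since its list is the shortest, and day 6 had 5 of 9 (30.2%). With the higher-scoring 50% of each list, the counts were 5 of 9 for ESC Oct1 (24.2% of all genes), 6 of 9 for Oct4 (26.7%), 3 of 9 at day 3 (15.0%) and 4 of 9 at day 6 (25%).

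**Figure D2:**
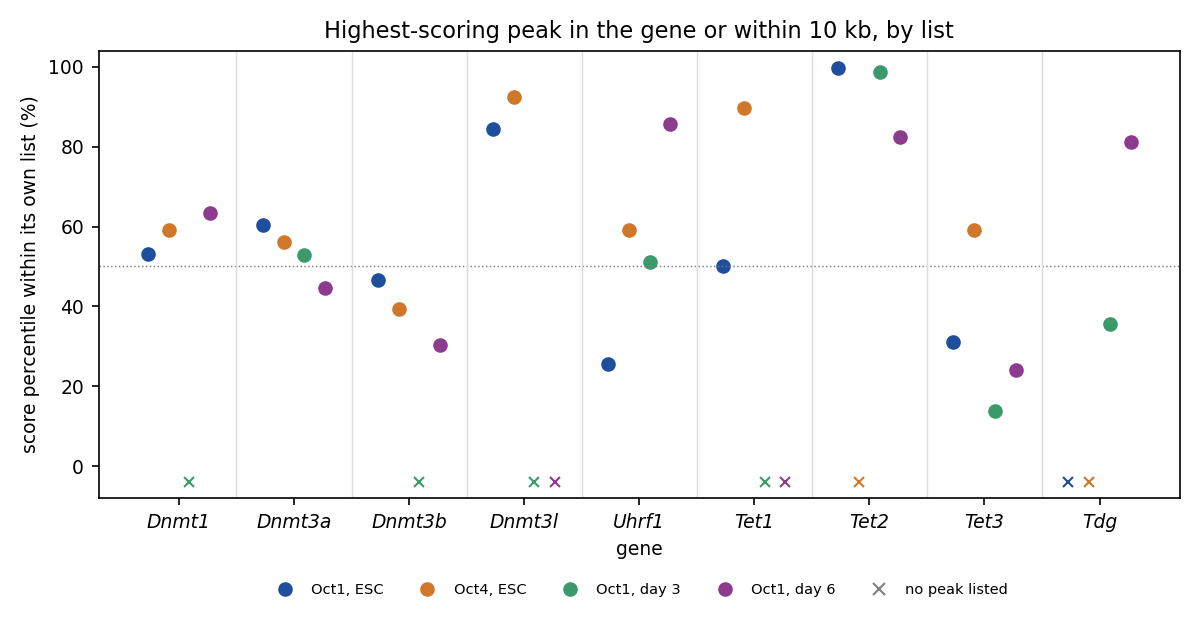
Score percentile, within its own list, of the highest-scoring peak in each gene or within 10 kb; crosses mark lists without a peak there and the dotted line the middle of a list. Tet2 stands highest for Oct1 in ESCs (99.7) and at day 3 (98.8) and has no Oct4 peak, Dnmt3l and Tet1 have peaks in ESCs alone, and Tdg at day 3 and day 6 alone.

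The position of the peaks within these genes also differed between the lists. At day 6, 7 of the 9 genes had an Oct1 peak touching a start window (31.0% of genes with a window), and the exceptions were Dnmt3l and Tet1. In ESCs this held for 2 of 9 with Oct1, Dnmt3l and Tet2 (5.81% of genes), and for 1 of 9 with Oct4, Dnmt3l (4.18%). At day 3 it held for 3 of 9, namely Dnmt3a, Tet2 and Tdg (14.1%). A gene with more start windows has more room for a touching peak. The 9 genes had 16 windows, and all 17492 genes with a window had 21263. The day 6 count rests in part on low-scoring peaks: with the higher-scoring 50% of the list it was 3 of 9, Dnmt1, Tet2 and Tdg (18.3% of genes), and with the list shortened to 4867 peaks it was 4 of 9, with Dnmt3a added (22.5%). Of the 11 day 6 peaks within 10 kb, 9 had their midpoint within 1 kb of an annotated start of a protein-coding gene, against 4 of 18 ESC Oct1 peaks, 3 of 26 Oct4 peaks and 3 of 6 day 3 peaks. The median distance was 0.122 kb at day 6, 5.31 kb at day 3, 10.7 kb for ESC Oct1 and 16.4 kb for Oct4. The whole lists show the same order, with 67.1%, 49.3%, 6.52% and 4.22% of their peaks within 1 kb of a start, so the higher shares at starts in the later lists were not limited to these genes. The gene table held no exons, so peaks within genes are not divided into exonic and intronic.

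**Figure D3:**
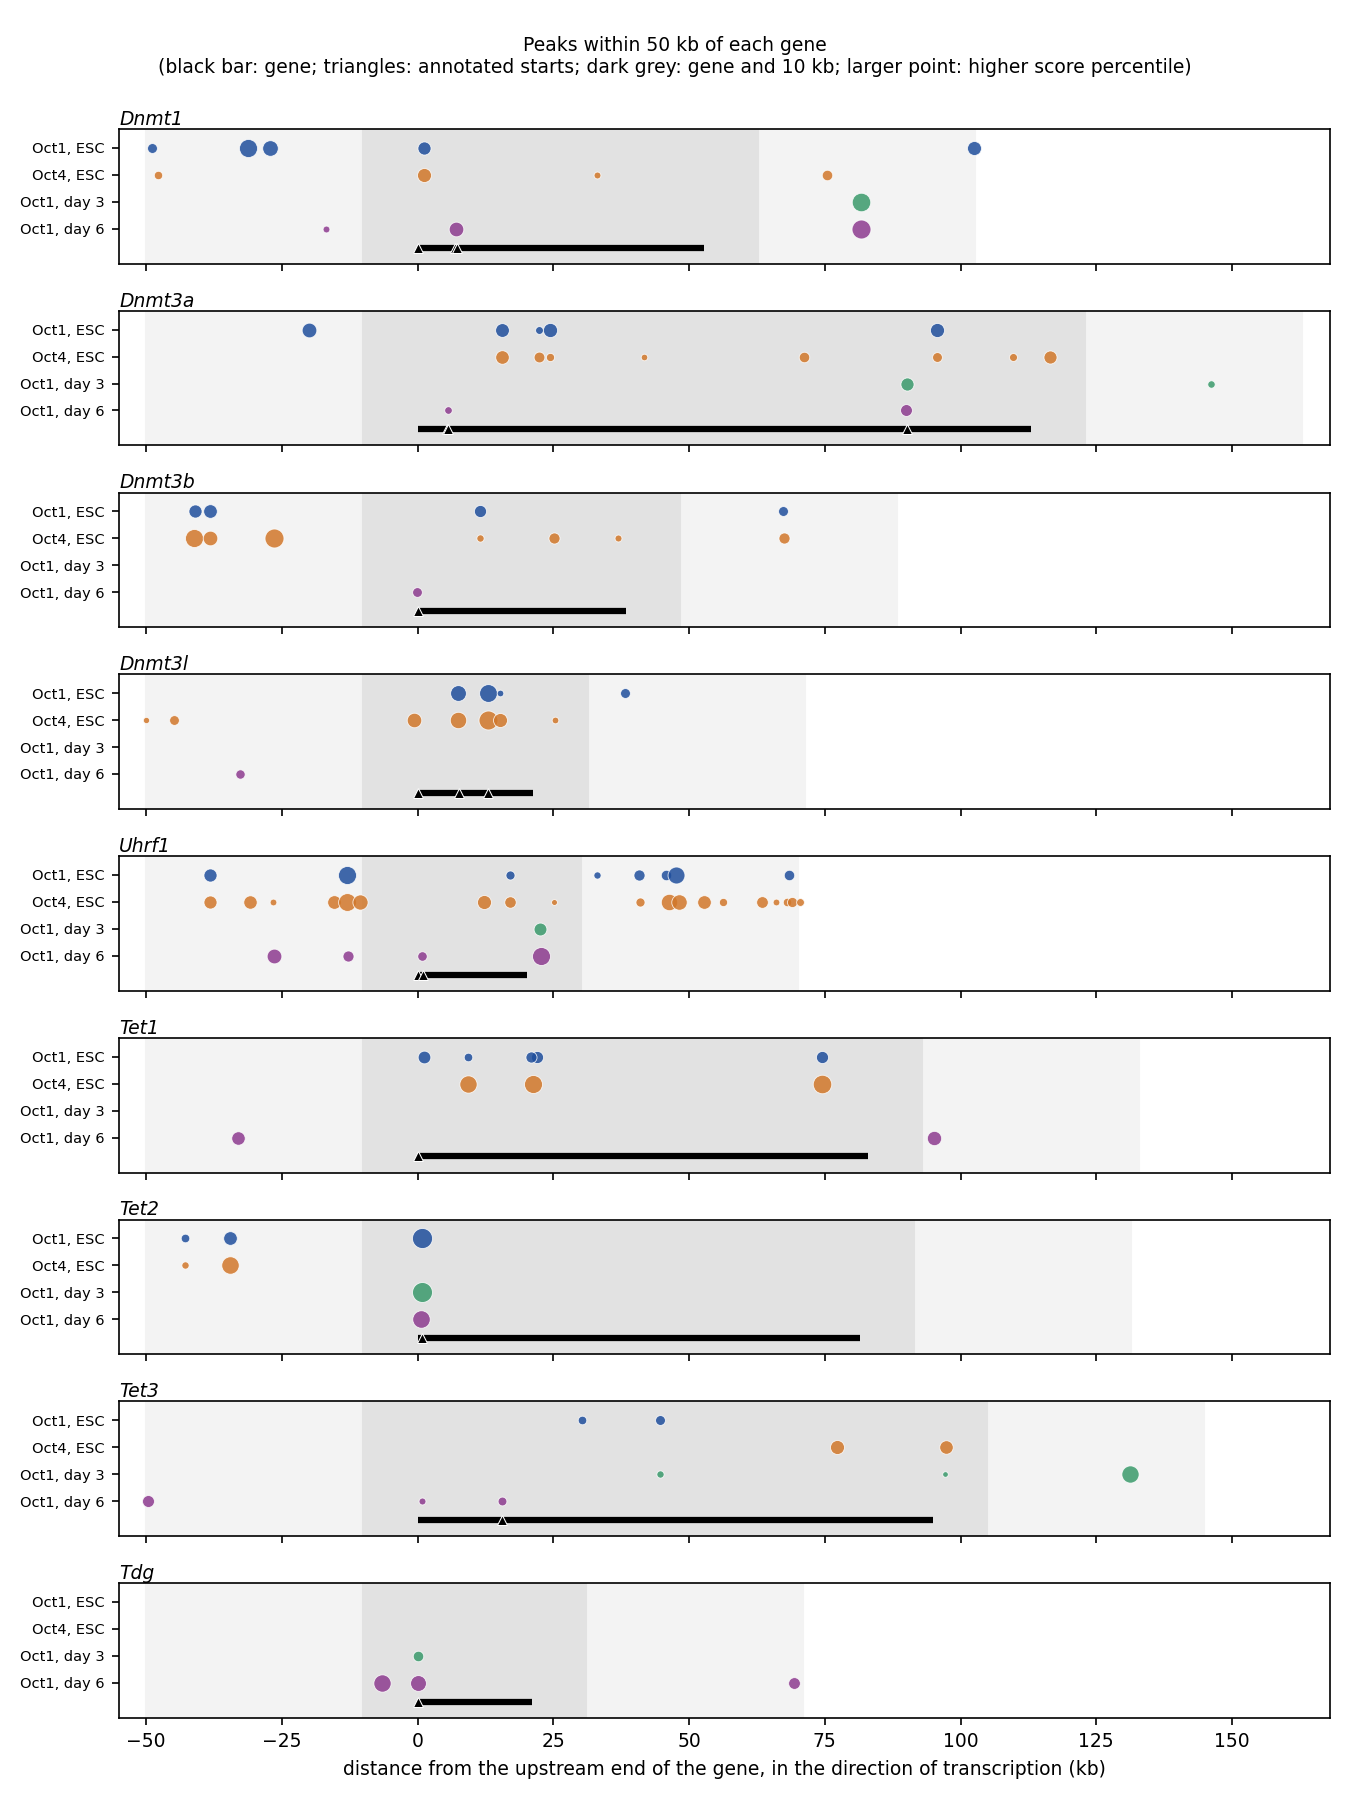
Peaks of the 4 lists within 50 kb of each gene, placed by distance in kb from the gene's upstream end in the direction of transcription; the black bar is the gene, triangles are annotated starts, and larger points have higher score percentiles within their list. ESC peaks are spread through Dnmt3a, Tet1 and Dnmt3l, and day 6 peaks sit at triangles in 7 genes.

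Tet2, which oxidises methylated cytosine and is expressed in ESCs and blood cells, had the highest-ranked Oct1 peak of the 9 genes in ESCs and at day 3. In the ESC list its peak (chromosome 3, 133543931 to 133544690) had a score of 7212, rank 52 and percentile 99.7. At day 3 the score was 3656, the rank 57 and the percentile 98.8 (133543941 to 133544700). At day 6 the score was 1111, the rank 1357 and the percentile 82.5 (133544051 to 133544920). These scores come from different lists and do not show a fall in binding. The 3 peaks overlap, and the midpoints of all of them lay within 0.0955 kb of the annotated start. No Oct4 peak was listed within 10 kb of Tet2. A start window with Oct1 peaks at all 3 times and no ESC Oct4 peak was found for 217 of 17492 genes (1.24%). The first 200 bases of the window shown above are a tandem repeat with a period of 42 bases, in which 91.1% of the compared bases equal the base 1 period on. Reads from repeats can be hard to place, and the part of the repeat in these scores was not tested. Away from the start, Tet2 had a pair of upstream sites in ESCs where both factors were listed, 35.3 kb and about 43.7 kb before the start. Their percentiles were 56.5 and 22.6 for Oct1 and 82.1 and 13.9 for Oct4, and neither had a later Oct1 peak.

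Tet1, the Tet gene best known for its high expression in ESCs, showed the opposite layout. It had 5 Oct1 peaks and 3 Oct4 peaks inside the gene in ESCs, and no Oct1 peak within 10 kb at day 3 or day 6. The 3 Oct4 peaks were among the better-scoring of their list, with percentiles of 89.6, 86.0 and 81.2, at 74.3 kb, 21.2 kb and 9.07 kb downstream of the start. Each overlapped Oct1, and the broad middle peak of 1670 bp overlapped 2 Oct1 peaks. The Oct1 peaks had percentiles from 22.6 to 50.1. The remaining Oct1 peak (chromosome 10, 62886061 to 62886600, percentile 50.1) lay 0.994 kb downstream of the start and had no Oct4 peak. The nearest day 6 peak missed the 10 kb limit at 11930 bp beyond the gene and lay at a start of Ccar1, a neighbour.

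Tet3, the family member best known from the oocyte and zygote, had low-scoring peaks within 10 kb in the 3 Oct1 lists and Oct4 peaks a little above the middle of theirs. Its ESC Oct1 peaks had percentiles of 31.1 and 22.6 and did not overlap Oct4. The first of them (chromosome 6, 83412081 to 83412890) had a day 3 peak at percentile 13.7. At day 6 there were 2 peaks within 10 kb, at the annotated start (83441181 to 83442040, percentile 24.1) and near the upstream end of the gene (83455911 to 83456910, percentile 11.5). Of the 2 Oct4 peaks, the one inside Tet3 reached percentile 59.1, and the other lay inside the neighbour Bola3 (percentile 55.8). A day 3 peak in Bola3 at percentile 2.39 was among the lowest of its list. Within 50 kb, a day 3 peak nearest to Mob1a reached percentile 80.6 and a day 6 peak nearest to Dguok 45.1.

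Tdg, which removes oxidised and deaminated bases, was the gene without any peak in ESCs, even within 50 kb. At day 3 an Oct1 peak covered its start (chromosome 10, 82629641 to 82630160, score 137, percentile 35.7). At day 6 the same start carried a peak of score 829 and percentile 71.2 (82629641 to 82630280). A second day 6 peak, with score 1068 and percentile 81.2, lay 6304 bp before the gene, at a start of the neighbour 1190007I07Rik.

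Dnmt1, the maintenance methyltransferase, has 3 annotated start windows, of which the middle and the last lie close together inside the gene. In ESCs, Oct1 (chromosome 9, 20958331 to 20958970, percentile 53.0) and Oct4 (20958371 to 20959010, percentile 59.1) shared a site 1.24 kb downstream of the first start. This site had no Oct1 peak at day 3 or day 6. The day 6 peak lay instead over the 2 inner starts (20952391 to 20953120, score 694, percentile 63.3). A second Oct4 peak inside the gene had percentile 11.1. Within 50 kb, the day 3 peak and the highest-scoring day 6 peak lay at Angptl6, a neighbour, with percentiles of 89.3 and 92.2 in their lists. The highest-scoring ESC Oct1 peak in this reach had percentile 86.3. It lay 31.3 kb before the first start, nearest to Mrpl4.

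Uhrf1, which guides Dnmt1 to newly copied DNA, had in ESCs 1 Oct1 peak at a low percentile of 25.7 (chromosome 17, 56320101 to 56320600), which overlapped an Oct4 peak at 42.0. Another Oct4 peak inside the gene had percentile 59.1. At day 6 a peak touched the second of its 2 starts (56303791 to 56304560, score 290, percentile 28.8). The highest-scoring peak within 10 kb, with percentile 51.2 at day 3 and 85.7 at day 6, was nearer to Kdm4b, a histone demethylase gene that follows Uhrf1. Kdm4b and other neighbours also held most of the 19 Oct4 and 8 ESC Oct1 peaks listed within 50 kb, so these numbers describe the region rather than Uhrf1.

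Dnmt3a, a de novo methyltransferase with alternative starts that give a long and a short protein, had 4 ESC Oct1 peaks in the gene with percentiles of 57.5, 17.4, 60.3 and 59.6. Each overlapped an Oct4 peak, and 4 further Oct4 peaks lay in or near the gene without Oct1. All 8 Oct4 peaks scored between percentiles 8.98 and 56.1. None of the 4 ESC Oct1 sites had an Oct1 peak later. At day 3 the peak lay at the most downstream start (chromosome 12, 3891441 to 3892030, score 208, percentile 52.9). At day 6 this start (3891251 to 3891950, score 447, percentile 44.6) and the upstream pair of starts (3806381 to 3808040, score 166, percentile 15.9) both carried a peak. The upstream peak was 1660 bp wide and touched both windows of the pair, which overlap each other.

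Dnmt3b, the other de novo enzyme and a gene strongly expressed in primed pluripotent cells, had 1 ESC Oct1 peak in the gene (chromosome 2, 153660651 to 153661190, percentile 46.6) shared with an Oct4 peak at percentile 13.9. No day 3 peak was listed within 50 kb. At day 6 a peak covered the start (153649031 to 153649710, score 305, percentile 30.3). Upstream, 2 sites shared by both factors in ESCs lay 41.1 kb and 38.3 kb before the start, both nearer to the neighbour Commd7. Their percentiles were 86.0 and 63.1 for Oct4 and 53.0 and 56.5 for Oct1. An Oct4 peak without Oct1 at 26.5 kb before the start reached percentile 92.3 and lay inside Commd7.

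Dnmt3l, the inactive cofactor and a gene active in ESCs and germ cells, had the site with the highest percentiles for both factors among those shared within 10 kb of these genes. Its 3 ESC Oct1 peaks all overlapped Oct4. The site at the most downstream start had percentile 84.4 for Oct1 (chromosome 10, 78054961 to 78055600, score 242) and 92.3 for Oct4 (78054971 to 78055620, score 293). The site at the middle start had 70.8 for Oct1 (78049491 to 78050070) and 75.3 for Oct4 (78049491 to 78050040). Another site 2.17 kb beyond the last start had 9.57 for Oct1 and 59.1 for Oct4. The first start had no Oct1 peak, and an Oct4 peak (percentile 62.6) lay 0.617 kb before it, inside the neighbour Aire. No Oct1 peak was listed within 10 kb at day 3 or day 6.

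Sites were then compared between lists by overlap of at least 1 bp. Of the 18 ESC Oct1 peaks within 10 kb, 14 (77.8%) overlapped an Oct4 peak, against 59.1% of the whole ESC Oct1 list. In the other direction 13 of 26 Oct4 peaks overlapped Oct1, against 46.0% of that list. The 4 ESC Oct1 peaks without Oct4 were that at the start of Tet2, that near the start of Tet1 and both in Tet3. A day 3 peak overlapped 2 of the 18 (11.1%, whole list 8.88%), in Tet2 and Tet3, and a day 6 peak overlapped 1 of 18 (5.56%, whole list 6.66%), in Tet2. Seen from the other side, 1 of 11 day 6 peaks (9.09%) lay at an ESC Oct1 peak, against 15.2% of the day 6 list, and none of the 11 at an Oct4 peak, against 12.9%. Of the 6 day 3 peaks, 4 overlapped a day 6 peak (66.7%, whole list 58.5%). With so few peaks these shares are a description, and most are close to those of the lists as a whole.

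The start windows with a day 6 Oct1 peak mostly held more CpGs, the dinucleotide that these enzymes act on, than those without. The 10 windows with a day 6 peak held 12 to 57 CpGs (median 31.5), and the 6 without held 2 to 17 (median 5.0). Both ranges overlap between 12 and 17. Over 21263 windows of protein-coding genes the median was 13.0, and a day 6 peak touched 1.59% of windows with 0 to 9 CpGs, 30.5% with 10 to 19, 57.7% with 20 to 29 and 68.7% with 30 or more. In the same classes the members had a day 6 peak in 0 of 4, 2 of 4, 2 of 2 and 6 of 6 windows. These 10 windows were touched by 8 peaks, as 1 peak touched 2 windows in each of Dnmt1 and Dnmt3a, so they are not separate observations. Tet2 had the most CpGs, 57, and 99.8% of all windows held fewer. The shares for day 3 peaks followed the same order, with 1.2%, 13.8%, 25.4% and 30.3% of all windows, and members had 0 of 4, 1 of 4, 1 of 2 and 1 of 6. ESC Oct1 peaks did not follow this order over all windows, with 4.67%, 9.65%, 4.82% and 1.77% in the same classes. The part of CpG content in the day 6 counts was not tested.

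**Figure D4:**
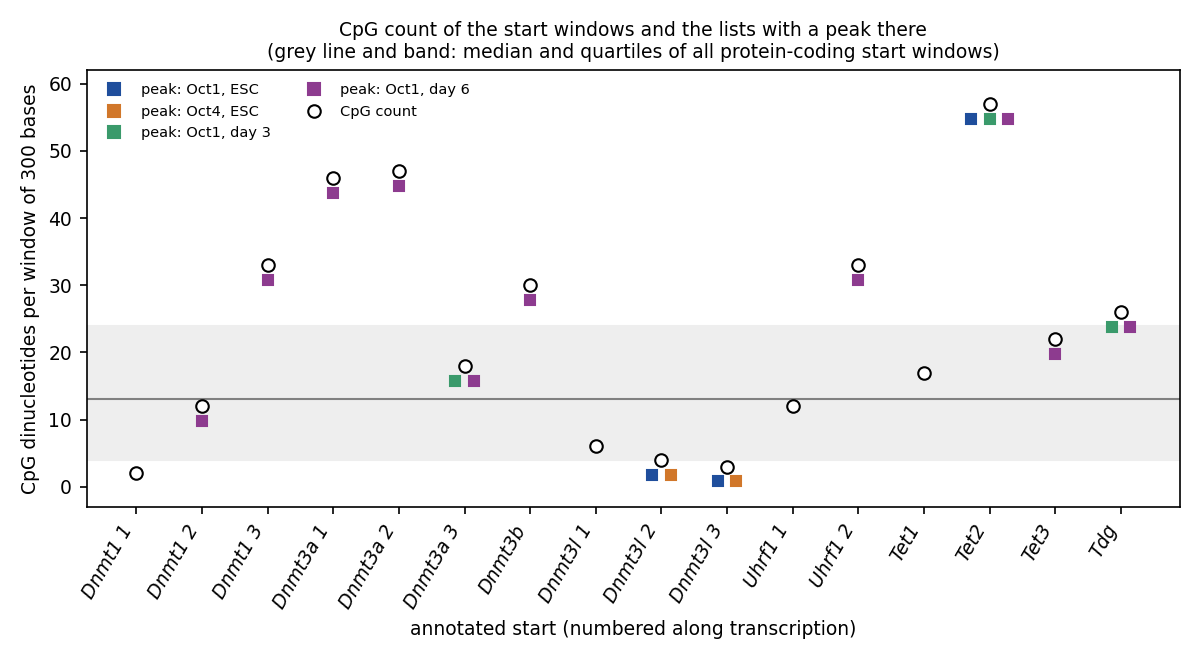
CpG dinucleotides in each 300-base start window of the 9 genes (circles), with coloured squares for the lists that have a peak there; the grey line and band are the median and quartiles of all protein-coding start windows. The 10 windows with a day 6 square have 12 to 57 CpGs, and the Dnmt3l windows with ESC squares have 4 and 3.

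The windows were searched on both strands for ATGCAAAT, the octamer that POU factors bind, and for MORE, ATGNATATNCAT, a palindromic element bound by POU dimers. None of the 16 windows held either. The octamer is rare in such windows: it was found in 1.66% of all 21263, in 7.03% of those with an ESC Oct1 peak and in 1.48% of those with a day 6 peak, and MORE in 0.047% of all. With at most 1 mismatch, which includes exact matches, there was again no octamer in the 16 windows, against 16.4% of all windows, 25% of those with an ESC Oct1 peak and 8.96% of those with a day 6 peak. The closest word had 2 mismatches in the Tet2 and Tdg windows and 3 in both Dnmt3l windows with a peak. Peaks extend beyond the windows, and sequence outside them was not used here.

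Other genes of the pathway, from a list of 53 of which 52 were matched, had ESC Oct1 peaks within 10 kb in 21 cases (40.4%), ESC Oct4 peaks in 24 (46.2%), day 3 peaks in 24 (46.2%) and day 6 peaks in 37 (71.2%). All 4 shares lay above those of all genes for 10 kb (35.2%, 40.2%, 24.6% and 41.5%), by less in the 2 ESC lists than in the later lists. Stricter scores are given in the order ESC Oct1, ESC Oct4, day 3 and day 6. With the higher-scoring 50% of each list, 18, 17, 14 and 25 of 52 genes had a peak. The shares of all genes were then 24.2%, 26.7%, 15.0% and 25%. With the shortened lists the counts were 15, 10, 24 and 29 of 52, against 16.3%, 14.7%, 24.6% and 30.2% of all genes. In both settings the counts of all 4 lists, those in ESCs included, lay above the shares of all genes. By role, day 6 peaks were listed at 6 of 8 readers of methylated DNA, 8 of 10 base excision repair genes, 6 of 6 maintenance partners, 4 of 7 genes of imprint protection and recruitment, 4 of 8 Tet regulators, 6 of 8 methyl donor genes and 3 of 5 deaminases and other methyltransferases. In ESCs the Oct1 counts for the same roles were 2, 5, 2, 4, 3, 2 and 3. The role counts are for the full lists, where the shares of all genes were 41.5% at day 6 and 35.2% for ESC Oct1. At day 6 each role lay above that share, the Tet regulators by the least. For ESC Oct1 the readers, maintenance partners and methyl donor genes lay below it and the other roles above it. With 5 to 10 genes per role, these counts are a description only.

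In that list, 2 genes had an Oct1 peak at their own start in the highest 10% at all 3 times, Ahcy and Gadd45a. The share of all genes was not taken for this score limit. At any score, a start window touched an Oct1 peak at all 3 times for 1.95% of 17492 genes. Ahcy, which clears the by-product of methyl transfer, had Oct1 peaks at its start with ranks 34 in ESCs, 51 at day 3 and 265 at day 6, and no Oct4 peak. Smug1, a uracil glycosylase, had Oct1 peaks inside the gene with ranks 46, 23 and 1532, and an Oct4 peak at percentile 10.7. Gadd45a, a stress protein proposed to take part in demethylation, had Oct1 at its start with percentiles of 99.2, 95.3 and 98.3 and no Oct4 peak. Pcna, the replication clamp, had percentiles of 94.6, 83.7 and 53.6 at its start, which lies close to the neighbour Cds2. Zbtb4, a reader, was counted in all 4 lists through peaks at a start of Polr2a, of which the ESC and day 3 Oct1 peaks had rank 2 and lay 6312 bp from Zbtb4.

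Peaks in the highest 10% of a list were further found in ESCs for Ehmt2 (Oct1 98.0), Cxxc5 (Oct1 97.5, Oct4 99.6), Apobec3 (Oct1 96.6, Oct4 98.3), Ung (Oct4 97.5), Ogt (Oct4 93.4) and Lig3 (Oct4 96.7, nearer to Rffl). At day 6 they were found for Ehmt1 (98.1, and 95.2 at day 3), Xrcc1 (96.4), Mtrr (rank 390) and Lig3 (94.0). For Mbd3 (97.9) the day 6 peak was nearest to Mex3d, and for Apobec2 (96.7, and rank 246 at day 3) it lay at a start shared by Nfya and Oard1. Peaks in 3 or 4 lists were listed at 18 of the 52 genes, against 23.2% of all protein-coding genes, and at 6 of the 9 members. Beside the genes already named (Zbtb4, Smug1, Ung, Lig3, Pcna, Ehmt1, Cxxc5, Gadd45a, Ahcy, Apobec2 and Apobec3), these included Neil2, Polb, Usp7, Trim28, Nsd1 and Apobec1. No list had a peak at 7 of the 52, against 36.5% of all protein-coding genes.

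To find genes with a similar pattern, each gene was given the percentile of its best peak within 10 kb in the 4 lists, with 0 where none was listed, and the smallest distances between these values were taken. The genes nearest to Tet2 were Clstn2 (distance 3.03 percentile points), Ehd4 (3.15) and Mettl4 (3.76), all without Oct4 and with ESC Oct1 percentiles of 98.5 to 98.9. The nearest to Dnmt1 was Elmo2 (3.83), to Dnmt3a Ldlrad3 (7.09), to Dnmt3b Nek2 (3.39), to Uhrf1 Rprd2 (11.5) and to Tet3 Eif4a2 (8.19). Dnmt3l, Tet1 and Tdg had peaks in 2 lists and were not compared. Over 21887 genes such near matches arise readily, and they carry no further information on these genes.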

How the data were processed

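Peak lists of 4 ChIP-seq libraries were used. The inputs (ESC, day 3 and day 6) were not analysed here. The submitters' processing notes name Novoalign 3.8.2 and mm10. How peaks were called, against which control and on what scale they were scored is not given in the sources used here. The score deposited by the authors, a whole number per peak, was used to rank and filter peaks within a list. Ties share their mean percentile.

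Genes came from a RefSeq table (GRCm38.p6) of 21887 protein-coding genes on 21 chromosomes. Start windows covered 17492 of them on 20 chromosomes. A peak counted within 10 kb or 50 kb of a gene when at least 1 bp lay there. Counting was done in Python 3.11.15 (numpy 2.4.6, pandas 2.3.3), tested on simulated data, and gave the same numbers per gene as bedtools 2.31.1. Exact binomial intervals (95%) used scipy 1.17.1 and cover counting only. Figures used matplotlib 3.10.9. No test across libraries was possible.

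The members and gene lists were chosen with earlier results of these data known. All 9 members are named. Pathway genes are named if a peak within 10 kb is in the highest 10% of scores of a list or if 3 or 4 lists have a peak, except 1 gene that is not reported here. Alternatives were other reaches, peak midpoints, nearest-gene assignment, stricter scores and stricter overlap.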

Additional observations from a re-analysis of the deposited data

How the results depend on the processing

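Of 93 alternative values for the counts and shares over the gene sets, 59 stayed within 1.5 times (counts) or within the counting interval (shares of all genes). Reaches of 5 kb or 20 kb kept the 10 kb counts of members and pathway genes within 1.5 times, as did peak midpoints (10 kb and 50 kb) and nearest-gene assignment (10 kb) for members, and other overlap rules for the overlaps. Scores mattered more. With the higher-scoring 50% of each list, members with a peak within 10 kb numbered 5 for ESC Oct1, 3 at day 3 and 4 at day 6, members within 50 kb 5 at day 6, and pathway genes 14 at day 3. For overlaps, both lists of a pair were cut in this way. Of the ESC Oct1 peaks left within 10 kb, 4 of 8 overlapped an Oct4 peak that was also left, and 1 of 8 a day 3 peak. In the full lists this held for 14 of 18 and 2 of 18. Of the day 3 peaks left, 2 of 3 overlapped a day 6 peak that was left, against 4 of 6. Some overlaps were lost only because the partner peak was cut, as in Dnmt3a (Oct1 percentile 60.3, Oct4 20.1). The lower shares therefore do not show that higher-scoring Oct1 sites overlap less. The matching shares of whole lists were not taken for this setting. With lists shortened to the shortest, members within 10 kb numbered 2 for ESC Oct1 and 2 for Oct4, within 50 kb 4 and 5, and pathway genes with Oct4 10. Members with a day 6 peak at a start numbered 3 with the higher-scoring 50% and 4 with the shortened list, both added after the data were seen. These alternatives keep fewer peaks by construction. No share of all genes within 50 kb was taken with the stricter scores, so the 50 kb counts of members have no background there. The shares of all genes within 10 kb are given in the order ESC Oct1, ESC Oct4, day 3 and day 6. They were 24.2%, 26.7%, 15.0% and 25% with the higher-scoring 50%, and 41.7%, 46.1%, 29.2% and 48.9% in the members' length range. At other reaches the shares were 29.5%, 34.0%, 21.5% and 38% at 5 kb and 44.2%, 49.0%, 29.9% and 47.3% at 20 kb. With shortened lists, an alternative added after the data were seen, the shares within 10 kb were 16.3%, 14.7%, 24.6% and 30.2%. For peaks of single members, 244 of 324 values stayed within 1.5 times and 38 went to 0. No paired analysis was possible because each group held 1 library. The reads behind each peak are unknown, so a gene without a listed peak is not shown to be unbound.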
